A study of Mus musculus with 24 samples.

Results

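The comparison described here was between the genotypes 8 h after stimulation, on the 6 gene arrays labelled with that time of the 24 in the series: 3 from Gch1fl/flTie2cre macrophages (animals 1, 4 and 5) and 3 from wild-type macrophages (animals 2, 3 and 6). The whole series holds bone marrow-derived macrophages from these 6 adult female C57bl/6J mice, each harvested just before and 2, 8 and 24 h after LPS was given together with 10 ng/ml interferon-γ. Wild-type stands for Gch1fl/fl littermates, which also carry the floxed allele, in which exons 2 and 3 of Gch1 lie between loxP sites, but not the transgene. Tie2cre is active in endothelial as well as bone marrow-derived cells, so the deletion is not limited to macrophages, and each animal gave 1 array per time point. Of 45281 probes, 16498 were tested because at least 3 of the 24 arrays detected them at a detection p under 0.01, and 8875 named genes are each given by their brightest tested probe.

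Gch1 encodes GTP cyclohydrolase I, which carries out the first and limiting step of tetrahydrobiopterin (BH4) synthesis. BH4 is a cofactor of the nitric oxide synthases, and activated macrophages make nitric oxide (NO) through the inducible enzyme, iNOS, encoded by Nos2. NRF2 is a transcription factor that is held in the cytoplasm by KEAP1 and released by oxidants and electrophiles, after which it raises genes of glutathione synthesis, thiol reduction and heme and iron handling. The question addressed was whether the genotypes already differed at 8 h in genes that differ at 24 h.

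Mean intensity on the 6 arrays at 8 h was 685.8 to 943, and 27.0 to 29.1% of probes were detected on each. All 14 tested macrophage markers, among them Adgre1 (F4/80), Csf1r and Itgam (CD11b), were detected on all 6 arrays. Their median difference between genotypes was −0.002 on the log2 scale. In 0 of the 14 did all arrays of one genotype lie beyond those of the other, beside 9.79% of all tested genes. Of the 16 T and B lymphocyte markers only Cd8b1 was tested, and the 9 of 16 neutrophil markers that were tested, with Ngp, Ltf and Camp detected on at most 4 of the 6 arrays, varied within each genotype, with median levels from 6.15 to 7.91 in wild-type and 5.34 to 8.55 in Gch1fl/flTie2cre arrays. In RNA from whole cultures, fewer cells of a type and less RNA per cell cannot be told apart.

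Animals 5 and 6, a Gch1fl/flTie2cre and a wild-type animal, stood apart from the other 4. At 8 h the deviations of their arrays from the group means correlated at r = 0.73 across probes, while the correlation of either with another animal was at most −0.321, and the 4 remaining animals correlated between −0.079 and 0.506. The deviations of the arrays of a genotype cancel out for each probe, so that the negative correlations are in part built in. What animals 5 and 6 share is not given in the labels. Values within animals 1 to 4 and within animals 5 and 6 are therefore given beside the results.

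At 8 h, 3 of 16498 probes differed between genotypes (0.0182%), where a call needed a fold over 1.5 with an adjusted p under 0.05. All 3 were lower in Gch1fl/flTie2cre macrophages: 2 probes of Gch1 and 1 of As3mt. By brightest probe these are 2 of 8875 genes (0.0225%). A further measure without a threshold on p was whether all 3 arrays of one genotype lay beyond the 3 of the other. That was so for 869 genes (9.79%), of which 500 were lower (5.63%) and 369 higher (4.16%) in Gch1fl/flTie2cre cells. Probes with an unadjusted p under 0.05 numbered 760, or 4.61% of those tested. The median gene had a difference of −0.007 with quartiles of −0.17 and 0.15, and a median standard error of 0.261. The count of called probes rested on single animals: it was 6 without animal 1, 12 without animal 5 and 9 without animal 6, and 2 without each of the others. With animals 1 to 4 alone, which leaves 2 arrays a genotype, 58 probes were called, 47 lower and 11 higher.

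**Figure D1:**
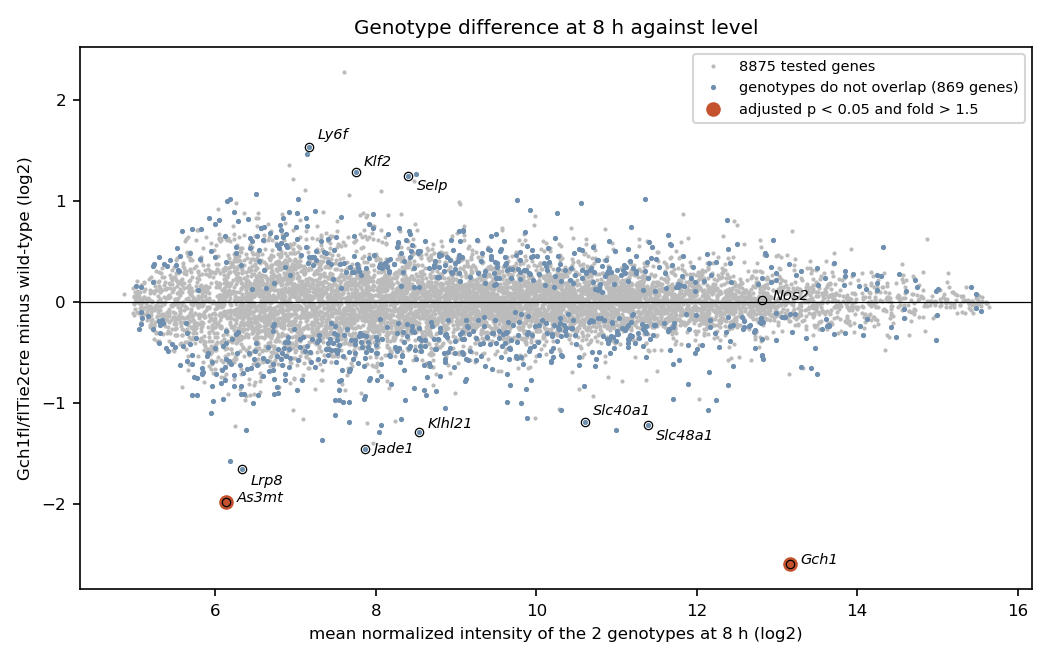
Genotype difference at 8 h (y axis, log2, Gch1fl/flTie2cre minus wild-type) against the mean normalized intensity of both genotypes (x axis, log2) for 8875 genes. Blue points are the 869 genes whose genotypes did not overlap, orange points the 2 genes that passed the test, and black circles mark the genes labelled by name: Gch1 at −2.60 and As3mt at −1.98 lie below all others.

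Gch1, the deleted gene, was lower in Gch1fl/flTie2cre cells on every array. Its normalized intensity (log2) was 14.42, 14.59 and 14.37 in wild-type animals 2, 3 and 6, and 11.72, 12.14 and 11.71 in Gch1fl/flTie2cre animals 1, 4 and 5. The genotypes did not overlap, and each of the 3 Gch1fl/flTie2cre arrays lay far below every wild-type array. The difference was −2.60 ± 0.32 (estimate ± standard error, n = 3 per genotype here and below; 6.08-fold; limma adjusted p = 6.14e-04), and −1.64 ± 0.23 on its other probe (adjusted p = 0.00402). Gch1 was also lower at 0, 2 and 24 h, with differences of −2.55, −2.23 and −1.86. Where the probes lie relative to exons 2 and 3 was not analysed here, and whether the signal left in Gch1fl/flTie2cre cells comes from transcript without these exons was not tested. From 0 to 8 h, the fitted change of Gch1 was 0.60 ± 0.30 in wild-type against 0.54 in Gch1fl/flTie2cre cells, neither past the threshold (adjusted p = 0.126 and 0.154).

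The other tested genes of BH4 synthesis and recycling did not separate. Pts and Spr, which encode the enzymes that act after GTP cyclohydrolase I, differed by −0.08 ± 0.17 and −0.24 ± 0.31. Qdpr and Pcbd2, of BH4 recycling, differed by −0.02 ± 0.33 and 0.04 ± 0.37. Nos2 was at 12.82, 12.59 and 13.01 in wild-type against 12.83, 12.60 and 13.05 in Gch1fl/flTie2cre cells. These values overlap fully, and the difference of 0.02 ± 0.48 has a 95% interval from −0.98 to 1.03. On its other, dimmer probe Nos2 differed by 0.41 ± 0.35. In both genotypes Nos2 rose from 0 to 8 h, by 5.61 in wild-type and 4.84 in Gch1fl/flTie2cre macrophages (limma adjusted p = 2.26e-08 and 1.4e-07). Over the same time 2424 probes rose (14.7%) and 2645 fell (16%) in wild-type cells, and 2627 rose (15.9%) and 2955 fell (17.9%) in Gch1fl/flTie2cre cells. By brightest probe, 1300 genes (14.6%) rose and 1472 (16.6%) fell in the former, and 1399 (15.8%) and 1697 (19.1%) in the latter.

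As3mt, which encodes the methyltransferase that methylates arsenite, was the only other gene called among the probes tested here, which do not include the chemokine Cxcl5. Its level was 6.84, 7.06 and 7.48 in wild-type cells, detected on all 3 arrays, and 5.01, 5.41 and 5.02 in Gch1fl/flTie2cre cells, detected on none. The groups lay far apart, but the lower one was below detection, so that only a bound can be given. As3mt was at least 1.12-fold lower, against the lowest detected signal of each array, with a fitted difference of −1.98 ± 0.24 (limma adjusted p = 6.14e-04). The difference was of like size at 0, 2 and 24 h (−1.99, −2.30 and −2.32). A second As3mt probe, detected on none of the 6 arrays at 8 h, differed by −1.18 ± 0.24 (adjusted p = 0.214).

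**Figure D2:**
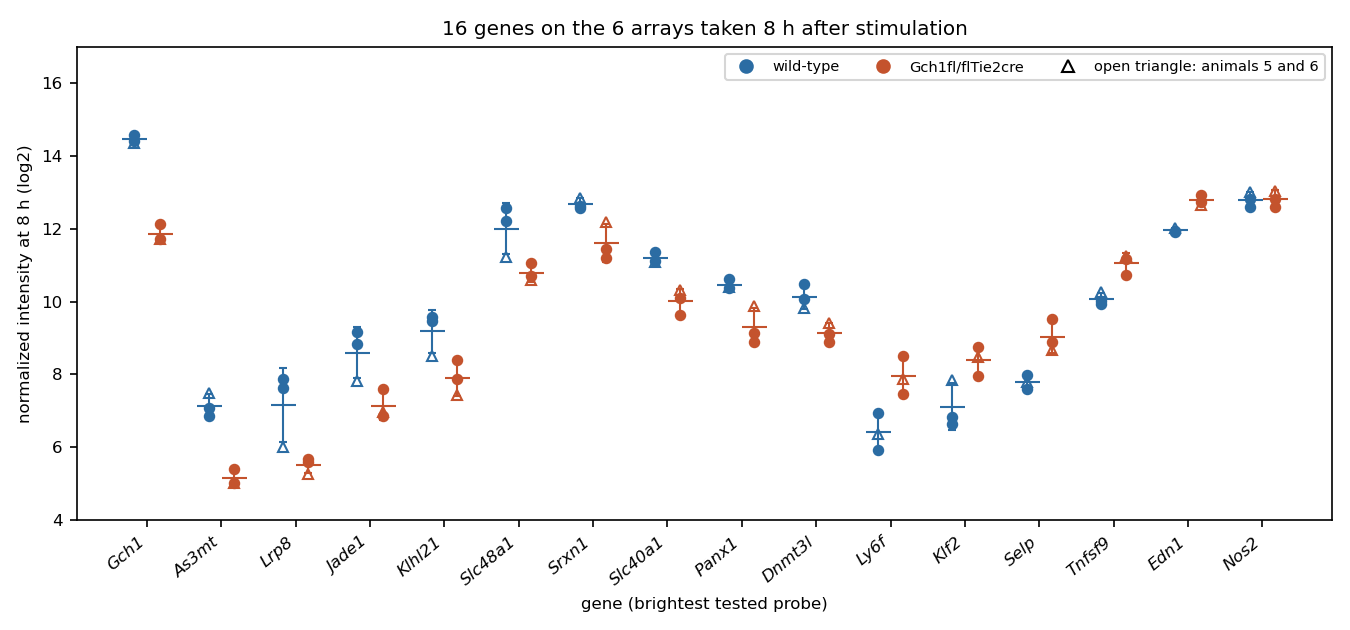
Normalized intensity (y axis, log2) of 16 genes (x axis) on each of the 6 arrays at 8 h, with the mean and SD of each genotype (n = 3), and open triangles for animals 5 and 6. Gch1 (14.46 and 11.86) and As3mt (7.13 and 5.14) have the widest gaps between genotype means, and Nos2 overlaps. In the genes between them the triangles often mark the end of the wild-type or Gch1fl/flTie2cre range nearest the other genotype.

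The genes described next had the largest downward differences among those whose genotypes did not overlap. None of them passed the test over all probes (limma adjusted p from 0.232 upward), and some were near the detection limit. Slc48a1, which encodes the heme transporter HRG1, was at 12.23, 12.56 and 11.21 in wild-type against 11.06, 10.69 and 10.58 in Gch1fl/flTie2cre cells. The genotypes met closely at wild-type animal 6 and Gch1fl/flTie2cre animal 1, and the difference was −1.22 ± 0.27 (2.33-fold; adjusted p = 0.232). Klhl21, an adaptor of a CUL3 ubiquitin ligase, was at 9.46, 9.58 and 8.51 against 8.39, 7.87 and 7.43. Its difference of −1.29 ± 0.31 (2.44-fold; adjusted p = 0.309) was −1.39 within animals 1 to 4 and −1.08 for animal 5 against animal 6. Jade1, a subunit of a histone acetyltransferase complex, was at 8.82, 9.16 and 7.81 against 7.60, 6.85 and 6.97, a difference of −1.46 ± 0.31 (adjusted p = 0.232). Among the wild-type arrays Jade1 was lowest in animal 6, close above Gch1fl/flTie2cre animal 1.

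Lrp8, the apolipoprotein E receptor 2, was at 7.62, 7.87 and 6.00 in wild-type against 5.59, 5.67 and 5.26 in Gch1fl/flTie2cre cells. It was detected in wild-type animals 2 and 3 only and in no Gch1fl/flTie2cre array, so that it was at least 1.14-fold lower (group means 7.16 and 5.51; fitted difference −1.65 ± 0.36, adjusted p = 0.232). A second Lrp8 probe, not detected at 8 h, differed by −0.10 ± 0.23. Ddah2, of the arginine metabolism list, was at least 1.04-fold lower (detected on 2 wild-type and 0 Gch1fl/flTie2cre arrays; fitted difference −1.27 ± 0.39). Sdr39u1, detected on 1 of the 6 arrays, had a fitted difference of −1.57 ± 0.51. Wild-type animal 6 was at 8.28, against 6.07 and 6.56 in animals 2 and 3. The fitted differences of Sdr39u1 at 0, 2 and 24 h were −1.14, −1.32 and −1.50, with overlap of the genotypes at 0 and 2 h.

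Among the brighter genes, Slc22a4, the ergothioneine transporter, was at 8.72, 8.26 and 9.07 against 6.93, 7.15 and 8.10, a difference of −1.29 ± 0.35 (adjusted p = 0.562). The Gch1fl/flTie2cre array nearest the wild-type range was that of animal 5. Lpar6, a lysophosphatidic acid receptor, differed by −1.27 ± 0.50 and followed the same order, with animal 5 at 11.13 and animals 1 and 4 at 9.86 and 10.11. Cxcl3, a neutrophil-attracting chemokine, was at 8.60, 8.85 and 8.58 against 7.63, 6.81 and 7.94, a difference of −1.22 ± 0.47 (adjusted p = 0.958). In Cxcl1, of the same chemokine family, the difference was −0.72 ± 0.32, again without overlap. Kcnq1ot1, an imprinted noncoding RNA, and Paqr7, a membrane progestin receptor, differed by −1.37 and −1.19. In both, Gch1fl/flTie2cre animal 4 (5.46 and 5.67) lay far below the other 5 arrays.

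Slc40a1, which encodes ferroportin, the only known cellular iron exporter, was at 11.12, 11.36 and 11.10 in wild-type against 9.63, 10.09 and 10.31 in Gch1fl/flTie2cre cells. All wild-type arrays lay clearly above all Gch1fl/flTie2cre arrays, and the difference was −1.19 ± 0.34 (2.28-fold, 95% interval −1.90 to −0.47; adjusted p = 0.630). At 0 and 2 h it was 0.33 and −0.13, and at 24 h −3.39 (adjusted p = 3.14e-05). Among 16 tested genes of iron export, uptake and storage, Slc40a1 and Ftl1, a ferritin light chain gene, were the ones without overlap. Both were lower (12.5% of the list, beside 5.63% of all genes). Ftl1 lay near the top of the intensity range on all 6 arrays (15.42 to 15.52), with a difference of −0.06 ± 0.14. The median of the list was 0.022, with 9 genes above and 7 below 0.

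Of 33 tested NRF2 target genes, 0 passed the test at 8 h, and 11 were lower without overlap of the genotypes against 0 higher. These 11 are 33.3% of the list, beside 5.63% of all tested genes that were lower without overlap. The list median was −0.193, beside −0.007 for all genes, and 28 of the 33 lay below 0, beside 4541 of 8875 genes. Without animals 5 and 6, both Gch1fl/flTie2cre arrays lay below both wild-type arrays in 20 of the 33 genes (60.6%), beside 23.3% of all genes. Animal 5 was below animal 6 in 26 of them (78.8%, beside 49.6% of all genes), with a smaller median difference (−0.11) than in animals 1 to 4 (−0.215). The median of the list was 0.042 at 0 h, 0.082 at 2 h and −0.582 at 24 h. The list contains genes that the study picked from these arrays, and its members were not chosen without knowledge of the results.

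The members lower without overlap include genes of glutathione supply. Slc7a11, the cystine/glutamate exchanger, was at 12.31, 13.01 and 12.87 in wild-type against 11.65, 11.41 and 12.20 in Gch1fl/flTie2cre cells, a difference of −0.97 ± 0.34 (adjusted p = 0.887). Its 3 other probes differed by −0.21, −1.39 and −0.42, all downward but overlapping on 2 of them. Gclc and Gclm encode the catalytic and modifier subunits of glutamate-cysteine ligase, the first step of glutathione synthesis. Gclc was at 8.13, 8.02 and 8.35 against 6.78, 6.90 and 7.85, a difference of −0.99 ± 0.36 (adjusted p = 0.923). Gclm was at 12.27, 12.51 and 11.78 against 11.09, 10.86 and 11.72, a difference of −0.96 ± 0.41 (adjusted p = 0.999). In Gclm the genotypes almost met in animals 6 and 5, where the difference was −0.06, while it was −1.41 within animals 1 to 4.

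Other members act on thiols and carbonyls. Srxn1, sulfiredoxin, which restores over-oxidized peroxiredoxins, was at 12.62, 12.57 and 12.86 in wild-type against 11.44, 11.19 and 12.19 in Gch1fl/flTie2cre cells. Its difference was −1.07 ± 0.32 (adjusted p = 0.669), with −0.93 and −1.02 on 2 further probes, none overlapping. Cbr3, a carbonyl reductase, was at 10.71, 10.76 and 11.05 against 9.32, 9.51 and 10.47, a difference of −1.07 ± 0.25 (adjusted p = 0.305), and of −1.44 ± 0.30 on a second probe (adjusted p = 0.229). In both genes animal 5 was the highest Gch1fl/flTie2cre array and stayed below the wild-type range. Smaller differences without overlap were those of Abcc1 (−0.68 as fitted, detected on 0 of the 3 Gch1fl/flTie2cre arrays), Osgin1 (−0.63), Cat (−0.49), Taldo1 (−0.32) and Ftl1. As given above, Ftl1 lay near the top of the intensity range.

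Other NRF2 targets overlapped at 8 h. Nqo1, the quinone reductase most used as a readout of NRF2, was at 8.43, 8.38 and 9.22 in wild-type against 8.28, 8.10 and 9.30 in Gch1fl/flTie2cre cells, a difference of −0.12 ± 0.46 with a 95% interval from −1.08 to 0.85. Hmox1, heme oxygenase 1, differed by −0.25 ± 0.45. Prdx1, a peroxiredoxin near the top of the intensity range, differed by 0.05 ± 0.12, and its sign turned to −0.005 with the deposited normalized values and −0.019 with cyclic loess. The study lists Prdx1 among the genes lower at 24 h, but this probe was not called then (−0.23 ± 0.12). It may thus miss a difference at 8 h. Gsta3, a glutathione S-transferase, differed by 0.46 ± 0.35 at 8 h, after 0.64 at 0 h and 0.865 at 2 h, the last without overlap. It stayed on the upper side at 8 h, when Gclm and Slc7a11 were on the lower. Gclm and Slc7a11 had also lain above 0 at 0 h (0.21 and 0.44) and at 2 h (0.47 and 0.115). Of the 7 genes of NRF2 regulators, Mafg, a small Maf partner of NRF2, was lower without overlap (−0.50 ± 0.21). This 1 gene is 14.3% of the list, beside 5.63% of all genes, and the list median was 0.037.

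**Figure D3:**
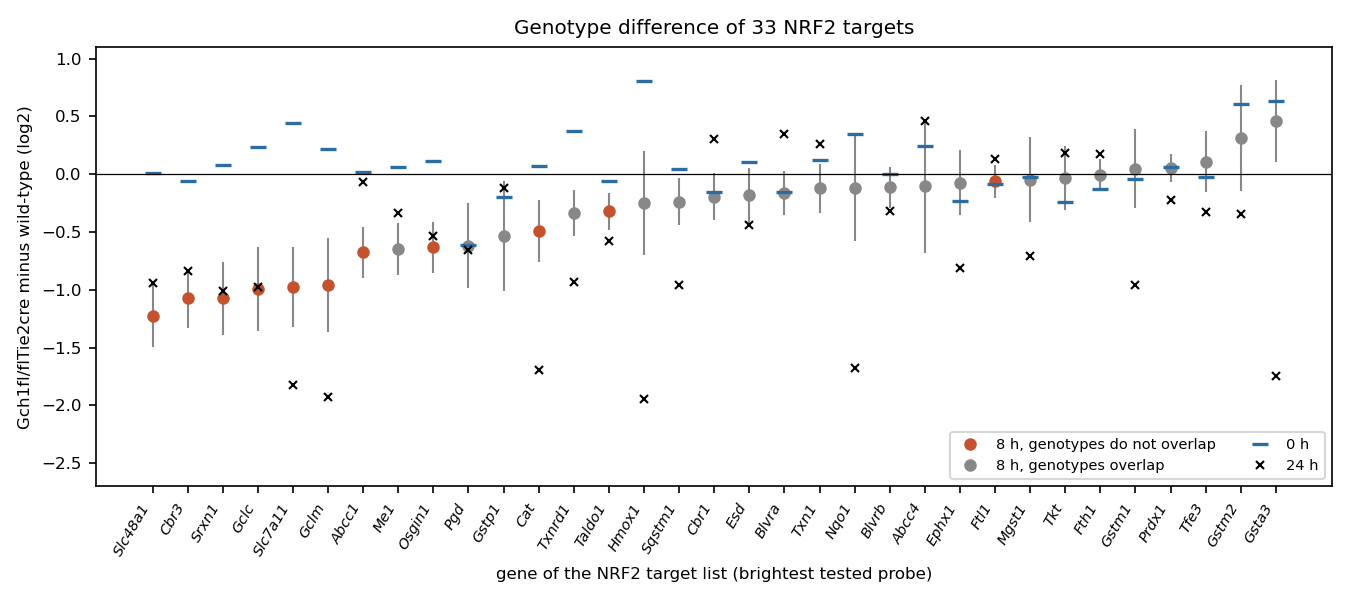
Genotype difference (y axis, log2, Gch1fl/flTie2cre minus wild-type) of the 33 tested NRF2 targets (x axis), as points with the standard error at 8 h, dashes at 0 h and crosses at 24 h. The 11 orange points are the genes whose genotypes did not overlap at 8 h, from Slc48a1 at −1.22 to Ftl1 at −0.06, and most dashes lie near or above 0.

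NRF2 binds with a small Maf protein to antioxidant response elements, of which TGACNNNGC is the core. This core was looked for on both strands of the 250 bases before each start in the RefSeq promoter table (GRCm38.p6), where it may overlap AP-1 sites. The table held a promoter for 7302 of the tested genes, of which 1011 (13.8%) held the core. It was present in 7 of 29 NRF2 targets with a promoter (24.1%), and in 1 of the 8 with a promoter whose genotypes did not overlap (12.5%). The site of Gclm is shown because it is that 1 gene, and those of Txnrd1, Prdx1 and Gsta3 as examples of genes whose genotypes overlapped at 8 h (−0.34, 0.05 and 0.46). Abcc4, Blvra and Mgst1 also held the core and overlapped (−0.11, −0.16 and −0.05), and their sites are not shown. Capitals mark the core, which is read on the opposite strand in the first 3 sequences shown.
Gclm, chr3:122245397-122245457, plus strand: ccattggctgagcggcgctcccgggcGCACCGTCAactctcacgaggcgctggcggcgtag
Txnrd1, chr10:82859088-82859148, plus strand: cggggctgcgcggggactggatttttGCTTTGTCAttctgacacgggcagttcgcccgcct
Prdx1, chr4:116685440-116685500, plus strand: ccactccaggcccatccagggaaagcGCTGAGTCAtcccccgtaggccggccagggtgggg
Gsta3, chr1:21240438-21240498, plus strand: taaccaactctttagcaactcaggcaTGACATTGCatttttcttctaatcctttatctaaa
A match of these letters is a description of the window and says nothing of binding, and neither elements further from the start nor those after it were searched.

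At 24 h, 53 of 16498 probes were called (0.321%), 37 lower (0.224%) and 16 higher (0.097%), and by brightest probe 24 genes were lower (0.27%) and 6 higher (0.0676%). This count at 24 h was 11 without animal 1, 4 without animal 3 and 2 without animal 4, and 106 and 94 without animals 2 and 5. The arrays of the time points are separate, but they come from the same 6 animals. Gch1 and As3mt were lower at all 4 times. Of the other 22 genes that were lower at 24 h, 21 lay below 0 at 8 h and 9 did so without overlap (40.9%, beside 5.63% of all genes). The median difference of the 22 was 0.051 at 0 h, −0.030 at 2 h, −0.426 at 8 h and −1.20 at 24 h. Without animals 5 and 6, both Gch1fl/flTie2cre arrays were below both wild-type arrays in 19 of the 22, beside 23.3% of all genes, and animal 5 was below animal 6 in 18.

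Besides Slc40a1, Slc7a11, Gclm and Cat, the 9 include Dnmt3l, a catalytically inactive partner of the DNA methyltransferases. Dnmt3l was at 10.07, 10.49 and 9.83 in wild-type against 8.90, 9.11 and 9.42 in Gch1fl/flTie2cre cells. It did not overlap, with a difference of −0.99 ± 0.29 at 8 h (adjusted p = 0.710) and of −1.12 on a second probe, after 0.17 at 0 h and 0.54 at 2 h. Ampd3, an AMP deaminase, differed by −0.82 ± 0.19 at 8 h (adjusted p = 0.232) and −1.13 at 24 h. The remaining members without overlap were Ltbp3 (−0.65), Cd151 (−0.29) and Katnbl1 (−0.25). Ltbp3 was lower without overlap at 0 and 2 h as well (−0.43 and −0.57), and Cd151 at 2 h (−0.14).

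Other genes that were lower at 24 h overlapped at 8 h. Ednrb, the endothelin B receptor, was at 11.56, 11.81 and 10.43 in wild-type against 10.88, 10.64 and 10.04 in Gch1fl/flTie2cre cells. Wild-type animal 6 lay among the Gch1fl/flTie2cre arrays, and the difference was −0.75 ± 0.45 at 8 h and −2.92 at 24 h. Gsta3 was the one gene of the 22 above 0 at 8 h. Plpp3, a lipid phosphate phosphatase, and Plxna2, a semaphorin receptor, differed by −0.27 ± 0.33 and −0.17 ± 0.24 at 8 h. Plxna2 was detected on 0 of the 6 arrays at that time.

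**Figure D4:**
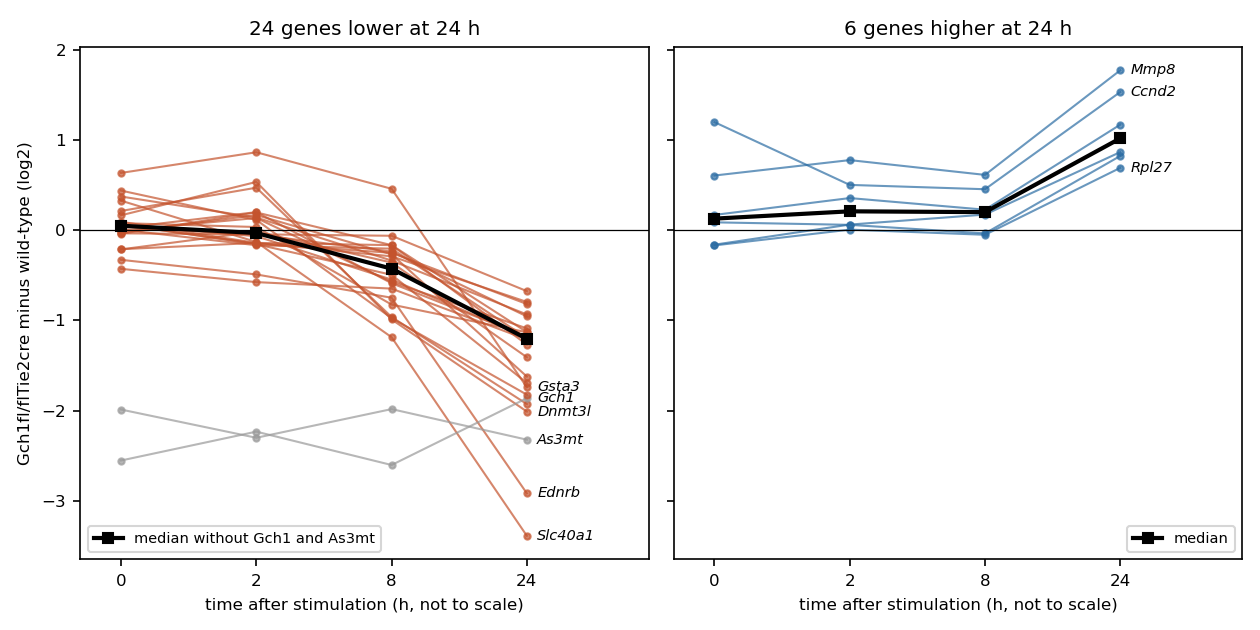
Genotype difference (y axis, log2, Gch1fl/flTie2cre minus wild-type) at 0, 2, 8 and 24 h (x axis) of the 24 genes lower (left) and the 6 genes higher (right) at 24 h, 1 line per gene. The black line is the median, which on the left, without Gch1 and As3mt (grey), was 0.051, −0.030, −0.426 and −1.20, and on the right 0.129, 0.21, 0.201 and 1.02.

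Of the 6 genes higher at 24 h, 4 lay above 0 at 8 h and 2 without overlap (33.3%, beside 4.16% of all genes), Mmp8 and Ccnd2. Mmp8, the neutrophil collagenase, was at 7.91, 7.96 and 8.33 in wild-type against 8.38, 8.75 and 8.91 in Gch1fl/flTie2cre cells, a difference of 0.61 ± 0.30. It was at 0.61 at 0 h and 0.78 at 2 h, also without overlap. Ccnd2, cyclin D2, differed by 0.46 ± 0.31 and was already at 1.20 at 0 h. Its 2 dimmer probes differed by 0.71 and 1.22, again without overlap. Mmp8 also belongs to the neutrophil list, whose median over 9 genes was 0.490 (0.629 in animals 1 to 4 and 0.050 in the other pair), and the part of such cells in its difference was not tested. The ribosomal protein genes Rps7 and Rpl27 differed by −0.04 ± 0.18 and −0.05 ± 0.14, and turned above 0 at 8 h in part of the alternatives. Over the 53 tested cytosolic ribosomal protein genes the median was 0.003 at 8 h and 0.416 at 24 h.

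The test of a change of the genotype difference between 8 h and another time called 0 probes. At 0 and at 2 h, 4 probes each (0.0242%) were called between genotypes, all lower, and 273 (1.65%) and 424 (2.57%) had an unadjusted p under 0.05, beside 1544 (9.36%) at 24 h. For the change against 8 h, the probes under that unadjusted p were 365 (2.21%) for 0 h, 491 (2.98%) for 2 h and 974 (5.9%) for 24 h by limma. The genotype differences at 8 h are thus not shown to be larger than those at 0 or 2 h, or smaller than those at 24 h, for any single probe. For Slc40a1 the fitted change of the genotype difference was −1.51 from 0 to 8 h and −2.20 from 8 to 24 h, neither past the threshold.

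Panx1, the channel through which ATP leaves the cell, was at 10.61, 10.37 and 10.41 in wild-type against 9.14, 8.90 and 9.89 in Gch1fl/flTie2cre cells. The genotypes did not overlap on this probe (−1.15 ± 0.42; adjusted p = 0.923) or on a second, dimmer one. In the other direction, also without overlap, lay the purinergic receptor genes P2ry13 (1.01 ± 0.68) and P2rx4 (0.27 ± 0.24) and Edn1. Edn1, the gene of endothelin 1, was at 11.93, 11.94 and 12.02 in wild-type against 12.75, 12.94 and 12.65 in Gch1fl/flTie2cre cells. Its 6 arrays fell into 2 tight groups, but the spread that the fit took from all 24 arrays was wide, so that the difference was 0.82 ± 0.63 (adjusted p = 0.999). Over the 14 tested genes of the purinergic, pannexin and endothelin list the median was 0.251.

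The highest genes without overlap formed no single family and none passed the test (limma adjusted p from 0.504 upward). Ly6f, of the Ly6 surface proteins, was at 6.92, 5.93 and 6.36 in wild-type, detected on 1 array, and 7.46, 8.50 and 7.86 in Gch1fl/flTie2cre cells, detected on 3, a difference of 1.54 ± 0.40 (adjusted p = 0.504). Klf2, a transcription factor that restrains the activation of myeloid cells, was at 6.83, 6.65 and 7.84 against 7.95, 8.76 and 8.47, a difference of 1.29 ± 0.44 (adjusted p = 0.868). Wild-type animal 6 came close to Gch1fl/flTie2cre animal 1. Selp, P-selectin, was at 7.97, 7.59 and 7.78 against 8.89, 9.54 and 8.67, a difference of 1.25 ± 0.38 (adjusted p = 0.742). Apol9b, of the apolipoprotein L family, was at 7.77, 7.57 and 8.26 against 9.46, 9.45 and 8.48, a difference of 1.27 (adjusted p = 0.589). The gap was small between animals 6 and 5 and wide between the rest. Apol9b was higher without overlap at 0 and 2 h as well (1.38 and 0.98), and Ly6f at 2 h (1.30).

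Selp stood on the same side in both sets of animals, with 1.43 within animals 1 to 4 and 0.89 for animal 5 against animal 6. The same held for Tnfsf9, the ligand of 4-1BB, at 10.01, 9.94 and 10.26 in wild-type against 10.74, 11.16 and 11.25 in Gch1fl/flTie2cre cells (0.98 ± 0.59; 0.98 and 0.99 within the sets). Trem1, which amplifies myeloid inflammatory signals, was not detected on any wild-type array on the probe used and was at least 1.14-fold higher, with a fitted difference of 1.07 ± 0.44. On another Trem1 probe the genotypes overlapped (0.58 ± 0.59). Abhd1 was detected on 0 wild-type arrays at 0 and 2 h, where it was at least 2.01- and 1.13-fold higher in Gch1fl/flTie2cre cells, with overlap of the genotypes at 0 h. Its fitted difference at 8 h was 1.47, and at that time Gch1fl/flTie2cre animal 1, at 6.80, all but touched wild-type animal 3, at 6.79. The largest upward difference of all genes, chosen here after its value was seen, was that of Plac8, at 2.29 ± 1.11, where Gch1fl/flTie2cre animal 5 (6.76) lay within the wild-type range of 6.05 to 6.93 and animals 1 and 4 lay at 9.13 and 10.35.

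No gene of the inflammatory lists passed the test at 8 h. Tnf was at 12.94, 13.55 and 13.72 in wild-type against 13.86, 13.54 and 14.04 in Gch1fl/flTie2cre cells (0.41 ± 0.24), and Il6 differed by 0.17 ± 0.36, with a 95% interval from −0.58 to 0.91. Both overlapped on their brightest probe, and a second Tnf probe did not (0.45 ± 0.20). In the list for Toll-like receptors and NF-kB, 0 of 34 tested genes passed, 6 were higher without overlap (17.6%, beside 4.16% of all genes) and 1 lower, and the median was 0.171. Those higher include Tlr3, the double-stranded RNA receptor (0.85 ± 0.39), Map3k8, a kinase of the Toll-like receptor pathway (0.48 ± 0.26), and Relb, an NF-kB subunit (0.45 ± 0.19). Traf6, an adaptor ligase of the same pathway, was the 1 lower (−0.31 ± 0.24). Of 19 chemokine genes 3 were lower without overlap (15.8%, beside 5.63% of all genes), Cxcl3, Cxcl1 and Cx3cl1, of which Cx3cl1 was not detected on any array, and the list median was 0.078.

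The lists of interferon-stimulated genes and interferon-inducible GTPases lay on the upper side, while the antigen presentation list did not. Of its 28 tested genes 16 lay above and 12 below 0, with a median of 0.013. In that list 3 genes were higher without overlap (10.7%, beside 4.16% of all genes) and 0 lower. Of 44 tested interferon-stimulated genes, 0 passed, 40 lay above 0, 7 were higher without overlap (15.9%, beside 4.16% of all genes) and 1 lower, with a median of 0.224. The 1 lower was Rsad2, which lay near the top of the intensity range on all 6 arrays (15.46 to 15.62). Trim21, an intracellular antibody receptor, was at 11.60, 11.34 and 11.26 in wild-type against 11.98, 12.22 and 11.70 in Gch1fl/flTie2cre cells (0.57 ± 0.19; adjusted p = 0.868), with 0.53 and 1.05 on its other probes. Ifit3, an antiviral effector, differed by 0.55 ± 0.18 and Mx2, a dynamin-like GTPase, by 0.57 ± 0.28, both without overlap. The list lay on that side before stimulation: its median was 0.416 at 0 h, 0.145 at 2 h and −0.040 at 24 h. At 8 h the median was 0.300 within animals 1 to 4 and 0.010 for animal 5 against animal 6. Of the 12 interferon-inducible GTPases, which restrict intracellular pathogens, 3 were higher without overlap (25%, beside 4.16% of all genes), Irgm2 (0.49 ± 0.20), Igtp (0.39 ± 0.26) and Gbp3 (0.26 ± 0.26). The median of the 12 was 0.319 at 8 h, with 0.464 in animals 1 to 4 and 0.078 in the other pair. It was 0.470 before stimulation, 0.053 at 2 h and −0.024 at 24 h.

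Arg1, which competes with iNOS for arginine, differed by −1.16 ± 0.34 at 8 h (adjusted p = 0.630), with overlap of the genotypes over all 6 arrays, and by −1.27 within animals 1 to 4 and −0.93 for animal 5 against animal 6. Ass1, which recycles citrulline to arginine, was at 11.33, 11.34 and 11.33 in wild-type against 11.11, 10.85 and 11.06 in Gch1fl/flTie2cre cells (−0.33 ± 0.21), and Slc7a7, a transporter of arginine and other cationic amino acids, was higher (0.71 ± 0.30), both without overlap. Over the 11 arginine genes the median was −0.139. Of 6 tested genes of DNA methylation, Dnmt3l and Dnmt1, the maintenance methyltransferase (−0.56 ± 0.60), were lower without overlap. These are 33.3% of a short list, beside 5.63% of all genes, and the list median was −0.510. With other background settings that median was −0.261 (deposited normalized values), −0.243 (no background correction) and −0.390 (an offset of 50).

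No gene of the metabolic lists passed the test at 8 h. Of 31 genes of glycolysis and the hypoxia response 3 were lower without overlap (9.68%, beside 5.63% of all genes): Adm, adrenomedullin (−0.88 ± 0.69), P4ha2, a collagen prolyl hydroxylase subunit (−0.83 ± 0.43), and Slc2a3, a glucose transporter not detected at 8 h. The median was −0.031. In 63 genes of oxidative phosphorylation the median was −0.073 and 48 lay below 0 (76.2%, beside 51.2% of all genes), while 4 were lower (6.35%, beside 5.63%) and 1 higher (1.59%, beside 4.16%) without overlap. In 24 genes of the tricarboxylic acid cycle and itaconate it was −0.030, and Acod1, the enzyme of itaconate synthesis, was near the top of the intensity range in both genotypes (0.08 ± 0.13). For 21 genes of cholesterol synthesis and sterol transport the median was −0.219, with 16 below 0 (76.2%, beside 51.2% of all genes). Without overlap, 0 were lower (beside 5.63% of all genes) and 1 higher (4.76%, beside 4.16%). The median of this list was −0.279 in animals 1 to 4 and −0.137 in the other pair. Without animals 5 and 6, both Gch1fl/flTie2cre arrays lay below both wild-type arrays in 10 of the 21 (47.6%, beside 23.3% of all genes).

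**Figure D5:**
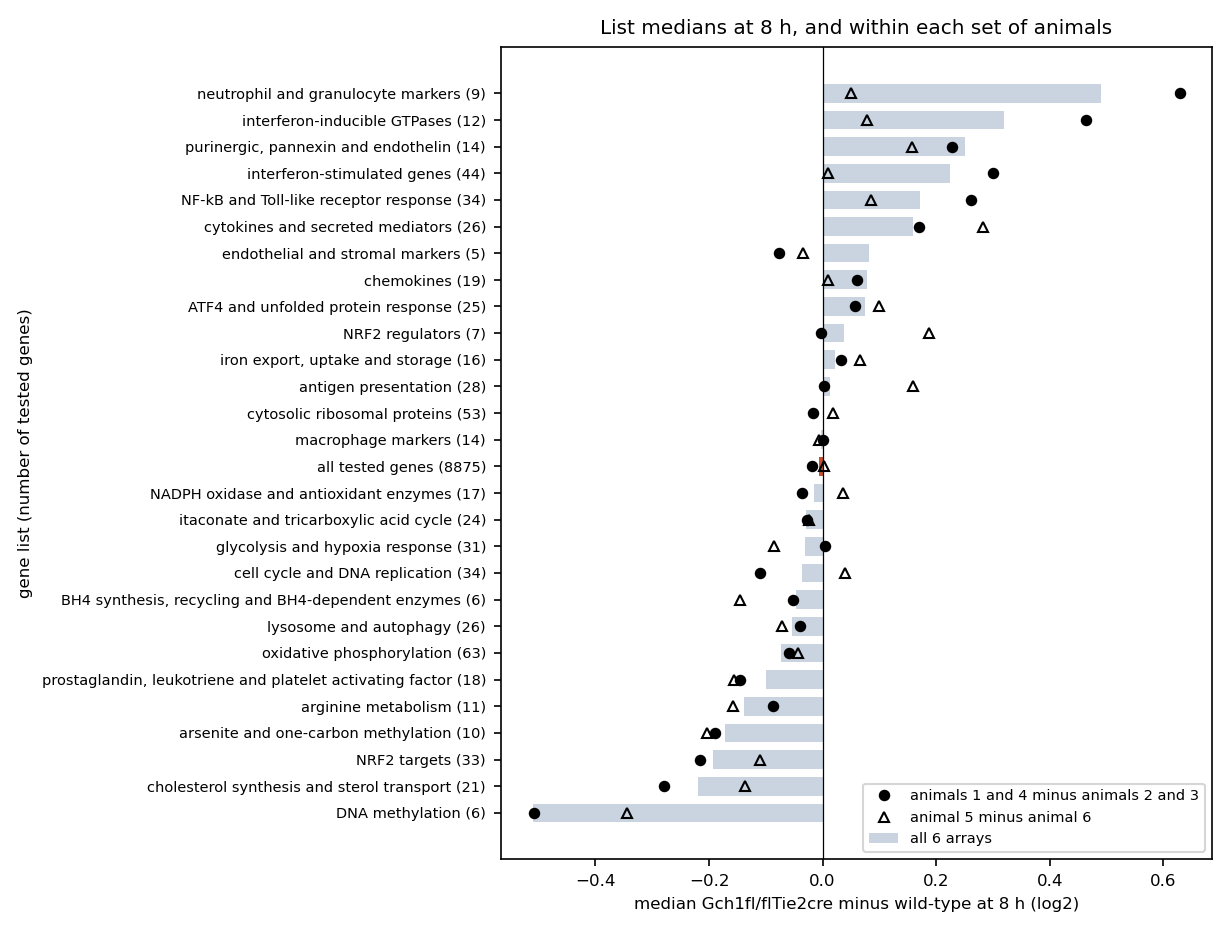
Median genotype difference at 8 h (x axis, log2) of each gene list with at least 5 tested genes and of all 8875 genes (orange bar). Bars are all 6 arrays, filled circles animals 1 and 4 minus animals 2 and 3, and triangles animal 5 minus animal 6: NRF2 targets and the cholesterol list lie below 0 in both (−0.215 and −0.11, −0.279 and −0.137), and interferon-stimulated genes are at 0.300 in one and 0.010 in the other.

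With the set of animals at each time point added to the fit as a block, 122 probes were called at 8 h (0.739%), 96 lower (0.582%) and 26 higher (0.158%). By brightest probe these were 53 genes lower (0.597%) and 15 higher (0.169%). The block was found in the same values that it then corrects, so that its p-values are too small, and with the set as 1 term for all times only 5 probes were called. Lrp8, Jade1, Klhl21, Slc48a1, Slc22a4, Lpar6, Cxcl3 and Panx1 passed with the block at each time (limma adjusted p from 0.00415 to 0.0275), as did Arg1 (0.00415) and, of the glycolysis and hypoxia list, Adm, P4ha2 and Eno2, an enolase (0.037, 0.0358 and 0.0166), and Slc40a1, Dnmt3l and Gclm did not (0.0718, 0.133 and 0.0907). Of the NRF2 targets 4 passed, all lower: Slc48a1, Srxn1, Cbr3 and Gclc. On the upper side were Selp, Tnfsf9 and Hoxb4, a homeobox factor of blood progenitors, at 7.44, 7.73 and 7.41 in wild-type against 8.49, 8.27 and 8.46 in Gch1fl/flTie2cre cells (0.88 ± 0.25). Also upward were Adamts4, an aggrecanase (1.36 ± 0.64), and Cd80, a T cell costimulator (0.71 ± 0.27), which overlapped without the block. Of these 68 genes, 51 did not overlap over all 6 arrays, beside 9.79% of all genes. The same 8 h values chose the 68, so that this count was in part built in. Among the 30 genes called at 24 h without the block were 3 of the 68: Gch1, As3mt and Ampd3. These are 4.41% of the 68 and 10% of the 30, where 0.27% of all genes were called lower and 0.0676% higher at 24 h. With the block, Lrp8, Slc48a1, Slc22a4, Cxcl3, Panx1, Srxn1, Cbr3, Gclc, Eno2 and Tnfsf9 also had a limma adjusted p under 0.05 at 24 h. Jade1, Klhl21, Lpar6, Arg1, Adm, P4ha2, Selp, Hoxb4, Adamts4 and Cd80 did not.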

How the data were processed

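RNA from bone marrow-derived macrophages was hybridised by the authors to Illumina MouseWG-6 v2 BeadChips, 1 array per animal and time point. The authors deposited mean probe intensities without background correction or normalization, and beside each a detection p-value against the negative controls of its array. The authors also deposited log2 values that had been variance stabilized and normalized, for which the submitters' processing notes name R 2.14 and limma. These log2 values served as an alternative. No scan date or chip is given in the labels used here.

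Intensities were background corrected with the detection p-values, offset by 16, quantile normalized and taken to log2 (neqc, limma 3.58.1, R 4.3.3). The fit held 8 group means over all 24 arrays, with the animal as a random block (duplicateCorrelation, statmod 1.5.0, correlation 0.124), so that the spread was shared by all groups, and Benjamini-Hochberg adjustment ran over 16498 probes. Calls needed a fold over 1.5 with an adjusted p under 0.05. Of the tested probes, 14050 had 1 gene symbol, 8 several and 2440 none. The precision is limited by the number of arrays, since 3 animals stand for each genotype, and p-values measure the spread between these animals. A bound ("at least N-fold") set the mean of the brighter group against the lowest detected signal of each array of the group in which a probe was not detected. The fit was tested on simulated data.

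Named genes were those the study names for its arrays, those called at 8 or 24 h or with the block for the set of animals, and the largest without overlap overall and in each of 30 lists of 804 entries. Other members of the NRF2 target list and a few genes of other lists were added after their values were seen. The members and lists were chosen with earlier results of these data known. Cxcl5, Angptl2 and Adra1a were not analysed here. Alternatives covered normalization, background, filters, the block, array weights, the prior, each animal left out and the set of animals. No probe sequences were used here, and promoters came from the RefSeq table.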

Additional observations from a re-analysis of the deposited data

How the results depend on the processing

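Each animal is 1 of 3 in its genotype, and counts of called probes moved with single animals. At 8 h, where 3 probes were called, leaving out 1 animal gave 2 to 12, array weights (whose estimate stopped before converging) 88, animals 1 to 4 alone 58, the set of animals as 1 term 5, the set at each time (chosen after seeing the data) 122, and only the arrays compared 1. At 0 h the 4 probes became 1 with only the arrays compared, 79 with array weights and 15 with the set at each time, and leaving out 1 animal gave 3 to 6. At 2 h the 4 probes became 2 to 8 with 1 animal left out (7, 2 and 8 without animals 1, 4 and 6), 142 with array weights, 11 with animals 1 to 4 and 23 with the set at each time. At 24 h the 53 probes became 2 to 106 with 1 animal left out, 124 with the deposited log2 values (89 higher and 35 lower), 130 without background correction (66 and 64), 108 with an offset of 50 (46 and 62), 83 with detection on all 3 arrays of a group, 131 with a trend and robust prior (66 and 65), 0 with only the arrays compared, 2115 with array weights, 234 and 955 with the set as 1 term and at each time, and 257 with animals 1 to 4.

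For the change of the genotype difference, where 0 probes were called, array weights gave 5 against 0 h, 45 against 2 h and 720 between 8 and 24 h, animals 1 to 4 gave 1, 1 and 4, the set at each time 2, 15 and 116, and leaving out 1 animal 0 to 1 in each (1 without animal 6 against 0 h, and without animal 5 in the others). Between 8 and 24 h the deposited log2 values and the set as 1 term gave 1 each.

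No paired analysis was possible because the labels do not say which animal of one genotype goes with which of the other, although the study calls its data paired. The block is the animal over its 4 times. With no replicate block, 3 probes were called at 8 h and 51 at 24 h.

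Of 109 named genes, 102 kept their direction at 8 h in every alternative in which they were tested. With detection on all 3 arrays of a group, 5 of the 109 were not tested (Pgghg, Shmt1, Slfn3, Tnfsf8 and Trem1). Reversed were Prdx1 (−0.005 with the deposited log2 values, −0.019 with cyclic loess), Rps7 (0.001 with the deposited log2 values, −0.162 to 0.038 with 1 animal left out), Rpl27 (−0.104 to 0.008 with 1 animal left out), Plpp3 (−0.616 to 0.035), Nqo1 (−0.485 to 0.156), Il6 (−0.117 to 0.455) and Nos2 (−0.088 to 0.138, and −0.005 with array weights). Gch1 passed in every alternative (adjusted p from 2.26e-07 to 0.0453). As3mt no longer passed with the deposited log2 values, without background correction or with only the arrays compared (adjusted p up to 0.336). Under some setting 33 genes passed. Of these settings, the set at each time gave 27, animals 1 to 4 gave 16 and array weights gave 15, while leaving out animal 5 added Slc22a4, Tnfsf8 and Cbr3 and leaving out animal 6 added Lrp8, Jade1 and Slc48a1. The cause of these changes was not tested. NRF2 targets lower without overlap numbered 9 with the deposited log2 values and 10 with cyclic loess, and the median of all genes lay between −0.019 and −0.001 over the scalings.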
